A study of Mus musculus with 6 samples.

Results

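The natriuretic peptide system was followed through 7 genes chosen by name, out of 20121 genes with counts in the files. They were the 3 peptide genes Nppa, Nppb and Nppc, the gene of the activating protease Corin, and the 3 receptor genes Npr1, Npr2 and Npr3. All 7 were in the files, and 6 had enough counts to be tested, Nppc being the exception. Each heart came from 1 mouse pup at postnatal day 14, and the strain background was mixed (ICR; C57BL/6). The 3 control pups carried TRalphaAMI, a knock-in allele that makes a dominant negative thyroid hormone receptor alpha once Cre recombinase has acted on it. Their 3 mutant littermates carried the same allele and also Myh6-Cre, whose Myh6 promoter drives Cre in heart muscle cells, so that by design the altered receptor is made in those cells and not in the other cells of the heart. The comparison asks which levels differ when the receptor is altered in heart muscle cells. No group had Myh6-Cre alone, so effects of Cre and of the altered receptor cannot be told apart.

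Nppa encodes atrial natriuretic peptide and Nppb encodes brain natriuretic peptide, hormones that heart muscle cells release and that promote salt and water loss and relax blood vessels. Corin is a membrane protease of heart muscle cells that cuts the atrial peptide precursor into the active hormone. Both hormones act on the receptor encoded by Npr1, a membrane guanylyl cyclase that makes cyclic GMP, while C-type natriuretic peptide, from Nppc, acts on the related cyclase encoded by Npr2. Npr3 encodes a receptor without a cyclase domain that takes the peptides up and clears them. After birth Nppa falls in ventricular muscle and stays high in the atria, and a rise of Nppa and Nppb in ventricular muscle is a widely used sign of load on the heart.

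Nppa and Nppb lie next to each other on mouse chromosome 4 and are read in the same direction. On mm10, in GENCODE M21, Nppb (ENSMUSG00000029019) spans chr4:147985788-147987205 on the plus strand and Nppa (ENSMUSG00000041616) spans chr4:148000722-148002079, each with 3 exons. The gap between the end of Nppb and the start of Nppa is 13.5 kb. The 250 bases before the RefSeq start of each gene (GRCm38.p6, plus strand) are shown because these were the members that rose. The Nppa stretch is chr4:148000472-148000721 and the Nppb stretch is chr4:147985650-147985899. Capitals mark matches to motifs of factors that are known to act on these genes: GATAA for GATA factors, AAGTG for NKX2-5, CATTCC for TEAD factors, and TATAAA, the TATA box.
Nppa: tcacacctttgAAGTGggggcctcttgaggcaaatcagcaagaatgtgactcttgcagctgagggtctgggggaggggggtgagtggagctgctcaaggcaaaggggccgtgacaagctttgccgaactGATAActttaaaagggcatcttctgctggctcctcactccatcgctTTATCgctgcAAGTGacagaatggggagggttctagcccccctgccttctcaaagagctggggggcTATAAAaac
Nppb: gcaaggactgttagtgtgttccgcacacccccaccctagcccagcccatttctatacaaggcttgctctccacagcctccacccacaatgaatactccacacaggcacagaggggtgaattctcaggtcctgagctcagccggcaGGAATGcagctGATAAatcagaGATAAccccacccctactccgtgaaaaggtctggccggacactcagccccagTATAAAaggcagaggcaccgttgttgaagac
Both strands were searched, so TTATC in the Nppa stretch is GATAA on the minus strand and GGAATG in the Nppb stretch is CATTCC on the minus strand. Nppa held GATAA at 121 to 117 and at 75 to 71 bases before the start, AAGTG at 239 to 235 and at 65 to 61, and TATAAA at 9 to 4. Nppb held GATAA at 94 to 90 and at 83 to 79, CATTCC at 105 to 100, and TATAAA at 31 to 26. Among 32851 promoter stretches of the same length, 22.6% held GATAA, 40.7% AAGTG, 12.6% CATTCC and 12.4% TATAAA. The letters AGGTCA, the core of the element that thyroid hormone receptors bind, was in 14.0% of all stretches and in none of the 7 members, and the CArG box of serum response factor was in 1.47% and in no member. TATAAA was also in the Nppc stretch. The RefSeq start of Nppb lies 112 bases after the GENCODE start, so its stretch includes bases that GENCODE places in the first exon. Matches of this kind describe the letters and show no binding.

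The libraries held 43314706 to 62095277 counts each and carried the same sequencing run identifier. Thra, the gene of the receptor, was at 66.8, 81.6 and 81.7 CPM (counts scaled to library size and composition) in control hearts and at 125, 142 and 143 in mutant hearts. This is a log2 difference of 0.83 ± 0.09 (SE), with an adjusted p of 0.000101 by edgeR's quasi-likelihood test, adjusted over all genes by Benjamini-Hochberg, as used throughout unless another test is named. It checks the labels only in part, since a count for the whole gene takes in altered and normal transcripts alike. Mitochondrial transcripts took 22.3% to 24.8% of the counts in control hearts and 16.7% to 18.8% in mutant hearts. All p-values rest on the spread among these 6 pups.

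Of the 6 members tested, Nppa and Nppb rose in the mutant hearts, none fell, and Npr1, Npr2, Npr3 and Corin did not pass the adjusted p threshold of 0.05. Over all 14877 genes tested, 37.5% passed the same threshold, 18.1% as higher and 19.5% as lower. CPM ranges of the groups did not overlap for 1 of the 6 tested members, Nppa, and for 49.8% of all genes tested. The number of members called is therefore near the background, and the description below rests on their sizes.

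Nppa stood at 59.0, 53.8 and 48.3 CPM in the control hearts and at 354, 319 and 295 CPM in the mutant hearts. Every mutant heart lay far above every control heart, and the spread within each group was small. The mean went from 53.7 ± 5.34 to 322 ± 29.7 CPM (SD, n = 3 each), a 6.01-fold rise. The log2 difference was 2.59 ± 0.10 (SE), with a 95% interval of 2.37 to 2.80 and an edgeR adjusted p of 1.93e-07. Of the 865 exon bases of Nppa, 532 also lie in exons of Gm13054, an antisense transcript on the other strand, and the library kit did not mark strand. Reads of both genes cannot be told apart on these bases. In the bulk RNA of a heart, fewer cells of a type and less RNA per cell also cannot be told apart.

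Nppb rose less and varied more. It stood at 61.2, 78.4 and 45.1 CPM in the control hearts and at 188, 111 and 76.8 CPM in the mutant hearts. The lowest mutant heart lay just under the highest control heart, so the groups overlapped on this scale. The mean went from 61.6 ± 16.6 to 125 ± 57.0 CPM (SD, n = 3 each), a 2.04-fold rise. The log2 difference was 1.03 ± 0.30 (SE), with a 95% interval of 0.36 to 1.69 and an edgeR adjusted p of 0.022. DESeq2 gave the same size, 1.03, with an adjusted p of 0.0578, and the edgeR call was also lost without control replicate 1 (1.02, adjusted p 0.064) and without control replicate 3 (0.84, adjusted p 0.054). Without mutant replicate 1, the heart with the highest value, the difference was 0.61 with an edgeR adjusted p of 0.0473.

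The spread of Nppb among hearts of 1 genotype was wide for this data set. The within-group SD of its log2 CPM, pooled over both groups, was 0.54, and 97.5% of the genes tested had a smaller one. Nppa, by the same measure, had 0.14, close to the median of all genes, 0.12. The coefficient of variation of Nppb was 27.0% in control and 45.5% in mutant hearts, while that of Nppa was 9.94% and 9.21%. The peptide genes thus differed in how evenly they stood within a genotype as well as in the size of their rise. Mutant replicate 1 was the highest mutant heart for both.

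The balance between the peptide genes was compared within each heart as the ratio of Nppa to Nppb in RPKM, read counts divided by gene length and library total. The ratio was 0.871, 0.620 and 0.966 in the control hearts and 1.70, 2.59 and 3.47 in the mutant hearts. On the deposited RPKM every control heart lay below 1 and every mutant heart above it. The place of 1 depends on how Nppa reads were counted, since with its 333 exon bases outside Gm13054 as the length every heart would lie above 1, while the shift between the groups would be the same. The difference was 1.62 ± 0.36 (SE) on the log2 scale, a 3.08-fold shift toward Nppa. The 2-sided exact permutation test gave p = 0.1, the smallest that 3 hearts against 3 can give, and 0.4 after Benjamini-Hochberg adjustment over the 4 ratios examined, so this design could not reach 0.05. The mutant heart with the most Nppb had the lowest ratio of the mutants.

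**Figure D1:**
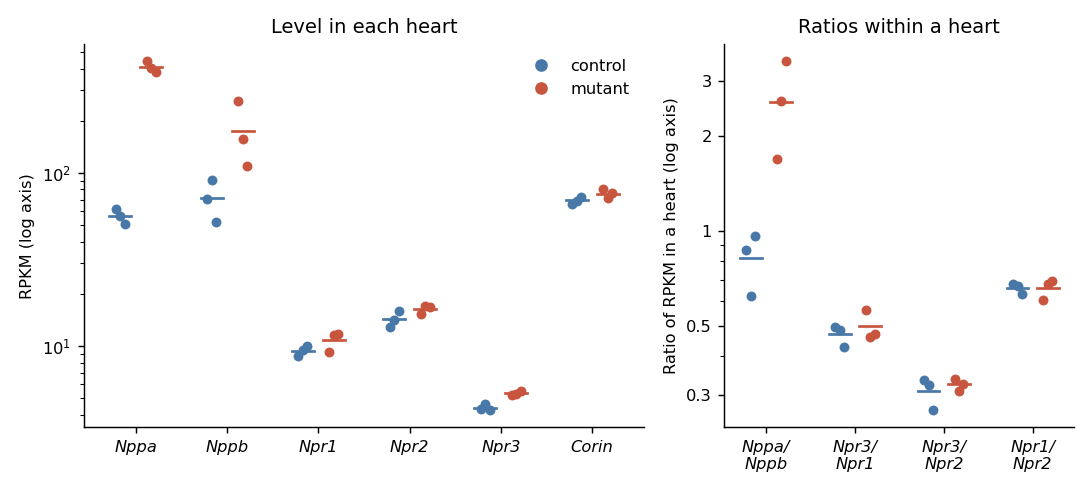
The left panel plots RPKM on a log axis for each heart and member (blue control, red mutant, bar the mean of 3 hearts), and the right panel plots 4 ratios within a heart on a log axis. Nppa and the Nppa to Nppb ratio are well separated between groups, Nppb is spread widely among mutant hearts, and the receptors and Corin lie close together.

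Nppc, the gene of C-type natriuretic peptide, was barely detected. It had 0, 2 and 2 counts in the control libraries and 1, 2 and 1 in the mutant libraries, 4 against 4 in all. No library exceeded the floor of 3 counts, so no fold is given and a difference was not detectable at this depth. The ligand of Npr2 was thus near the limit of detection, while Npr2 itself was measured in all 6 hearts.

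Corin, which activates the atrial peptide, stood at 396, 410 and 437 CPM in the control hearts and at 403, 350 and 367 CPM in the mutant hearts. The groups overlapped, with mutant replicate 1 inside the control range. The means were 414 ± 20.8 and 373 ± 27.1 CPM (SD, n = 3 each), and the log2 difference was -0.15 ± 0.07 (SE), with a 95% interval of -0.31 to 0.01 and an edgeR adjusted p of 0.131. Without mutant replicate 1 the difference was -0.21 with an edgeR adjusted p of 0.0457. A rise of Corin like that of Nppa lies outside the interval.

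Npr1, the cyclase receptor of both cardiac hormones, stood at 46.1, 50.1 and 53.1 CPM in the control hearts and at 41.1, 50.0 and 49.8 CPM in the mutant hearts. Its log2 difference was -0.08 ± 0.09 (SE), with a 95% interval of -0.29 to 0.12 and an edgeR adjusted p of 0.504. The groups overlapped, and mutant replicate 1, the heart with the most Nppa and Nppb, had the lowest Npr1. This order was picked after the values were seen and was not tested. Without that heart the Npr1 difference was 0.0033 (edgeR adjusted p 0.979). For Npr1, 11.7% of exon bases overlap an opposite-strand gene.

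Npr2, the receptor of C-type natriuretic peptide, stood at 66.3, 73.2 and 81.9 CPM in the control hearts and at 66.6, 72.2 and 70.2 CPM in the mutant hearts. The mutant values all lay within the control range. The log2 difference was -0.08 ± 0.08 (SE), with a 95% interval of -0.27 to 0.10 and an edgeR adjusted p of 0.458.

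Npr3, the clearance receptor, stood at 33.1, 35.2 and 32.7 CPM in the control hearts and at 33.4, 33.3 and 34.1 CPM in the mutant hearts. It was among the steadiest genes measured, with a pooled within-group SD of 0.04 on log2 CPM, below which lay 4.85% of the genes tested. The log2 difference was -0.00 ± 0.06 (SE), with a 95% interval of -0.14 to 0.13 and an edgeR adjusted p of 0.962.

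How these 4 genes compared depended on the scale. With the composition scaling (TMM) the median log2 difference over all genes was -0.00, whereas on log2(RPKM + 0.1), which holds no such scaling, it was 0.26. On that scale Npr1 differed by 0.19, Npr2 by 0.20, Npr3 by 0.27 and Corin by 0.13, so their signs turned positive while each lay at or below the median shift apart from Npr3, which was level with it. Npr3 passed the threshold there, with a limma adjusted p of 0.00781, and its RPKM values did not overlap between groups (4.30, 4.58 and 4.25 in control against 5.18, 5.28 and 5.49 in mutant hearts). In the same fit 46.4% of genes were called higher and 7.56% lower (46.4% and 7.6% on log2(RPKM + 1)), and RPKM groups stood apart in the higher direction for 54.6% of genes. Nppa, at 2.87, and Nppb, at 1.25 with a limma adjusted p of 0.0137, kept their direction and lay well above the shift.

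**Figure D2:**
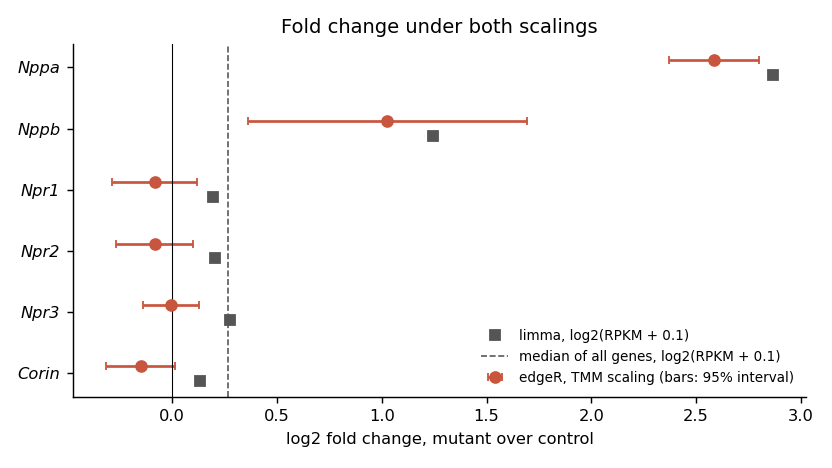
Log2 fold changes, mutant over control, are plotted for the 6 tested members with composition scaling (circles with 95% intervals) and on log2(RPKM + 0.1) (squares), where the dashed line is the median of all genes at 0.26. Nppa and Nppb lie to the right on both scales, while the receptors and Corin move from just left of 0 to near the dashed line.

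Ratios of receptors within a heart do not depend on the library scaling. The ratio of Npr3 to Npr1, clearance receptor over cyclase, was 0.496, 0.485 and 0.426 in control and 0.561, 0.460 and 0.472 in mutant hearts (2-sided exact permutation p = 0.6, adjusted p = 0.8). The ratio of Npr3 to Npr2 was 0.336, 0.324 and 0.269 in control and 0.338, 0.311 and 0.327 in mutant hearts (exact permutation p = 0.6, adjusted p = 0.8). The ratio of Npr1 to Npr2 was 0.678, 0.668 and 0.633 in control and 0.602, 0.676 and 0.693 in mutant hearts (exact permutation p = 0.9, adjusted p = 0.9). For each of these 3 ratios the groups overlapped.

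The order of the members by deposited RPKM differed between genotypes at its upper end. In control hearts Nppb averaged 71.0, Corin 69.2 and Nppa 55.9 RPKM, and the range of Nppb (52.0 to 90.6) overlapped those of Corin and of Nppa. In mutant hearts Nppa averaged 408, Nppb 175 and Corin 75.7 RPKM, and the ranges of these 3 did not overlap. Below them the order was the same in both genotypes, with Npr2 at 14.2 and 16.4, Npr1 at 9.37 and 10.8, Npr3 at 4.38 and 5.32 and Nppc at 0.022 and 0.027 RPKM in control and mutant hearts. The place of Nppa in control hearts rests on how its shared bases were counted. Were reads counted only on its 333 unshared bases, its control values would be 160, 147 and 131 RPKM. These lie above every Nppb value of that group, as Nppa did in mutant hearts. The counting of reads that fall on exons of both genes is not given in the sources used here. Gm13054 held only 4, 11 and 9 counts in control and 34, 52 and 32 in mutant hearts, with 64.9% of its exon bases in Nppa exons. Reads on shared bases were thus not counted for both genes. If they were dropped in all libraries, the deposited Nppa RPKM is too low in every heart and its fold change holds no shared reads. If they were given to Nppa, its fold change takes in reads of Gm13054.

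Of 14 genes annotated within 100 kb of the pair, 9 were tested including both members, and of the other 7, 2 were higher, 2 lower and 3 not past the threshold. The antisense transcript Gm13054 had 4, 11 and 9 counts in control and 34, 52 and 32 counts in mutant hearts. Its log2 difference was 2.19 ± 0.34 (SE, edgeR adjusted p 0.000828), and 64.9% of its exon bases lie in Nppa exons. Reads on those shared bases were not counted for both genes, as said above. With counts this low, those of Gm13054 leave out most or all reads on the shared bases. Clcn6, a chloride and proton exchanger of endosomes, rose by 0.29 ± 0.08 (SE, edgeR adjusted p 0.0223), a call lost without any 1 of control replicates 1 and 2 and mutant replicates 2 and 3 (adjusted p 0.0509, 0.0865, 0.0996 and 0.101). Mfn2, which fuses the outer membranes of mitochondria, fell by 0.33 (edgeR adjusted p 0.00413), and 2510039O18Rik fell by 0.29 (0.00488), both calls lost on the RPKM scales. Plod1, a collagen lysine hydroxylase, was at -0.14 and Agtrap, which binds the type 1 angiotensin receptor, at -0.17, neither past the threshold. On the RPKM scales Plod1 and Agtrap turned positive.

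**Figure D3:**
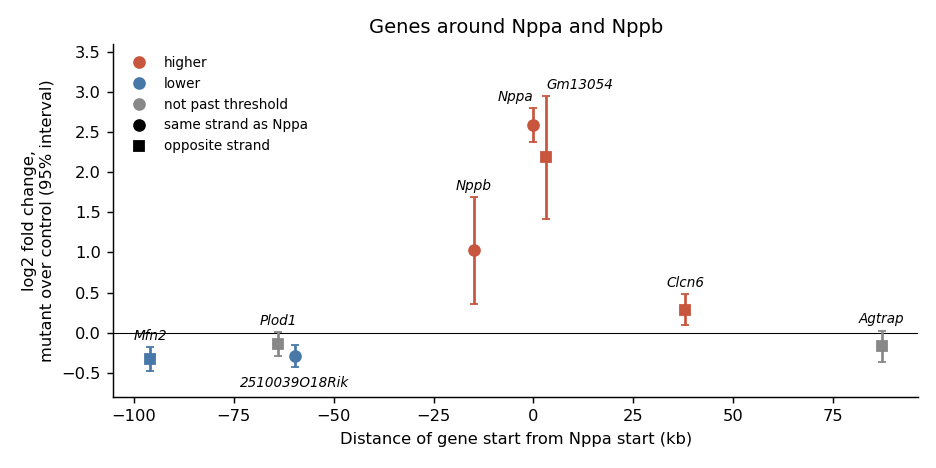
Log2 fold changes with 95% intervals are plotted against the distance in kb of the start of 8 tested genes from the Nppa start (red higher, blue lower, grey not past the threshold; circles same strand as Nppa, squares opposite strand). Nppa at 2.59, its antisense transcript at 2.19 and Nppb at 1.03 stand above the other neighbours plotted, which lie between -0.33 and 0.29.

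The hearts were labelled without a chamber, and Nppa is itself an atrial gene, so chamber markers were read beside it. Myl7, the atrial myosin light chain, had 3, 8 and 22 counts in control and 7, 8 and 7 in mutant libraries. Sln, the sarcolipin of atrial muscle, had 0, 0 and 8 counts in control and 2, 0 and 1 in mutant libraries. Myl2, the ventricular light chain, stood at 3272 to 3700 RPKM in control and 3548 to 3910 RPKM in mutant hearts, against at most 0.68 RPKM for Myl7. The defining atrial markers were thus at or near 0 in all 6 libraries, while the ventricular light chain was abundant.

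A further pair of atrial genes was measured at very low levels. Bmp10, an atrial growth factor, had 0, 2 and 0 counts in control and 20, 13 and 40 in mutant libraries (higher, edgeR adjusted p 0.00122), and Myl4, an atrial and fetal light chain, rose from 2.29 ± 0.174 to 3.22 ± 0.503 CPM (SD, n = 3 each, edgeR adjusted p 0.0257). The Myl4 call was lost without control replicate 1, control replicate 2 or mutant replicate 2 (adjusted p 0.0584, 0.0996 and 0.112). Of the 12 atrial marker genes tested, 4 were higher, 4 lower and 4 not past the threshold. Over all genes tested 18.1% were higher and 19.5% lower, and these shares stand beside each marker list. The atrial potassium channel gene Kcnj3 fell 8.16-fold (edgeR adjusted p 3.49e-07) and Myl1 2.97-fold (0.00111), while Dkk3 rose by 1.08 on the log2 scale and Pam by 0.45. For Kcnj3, 31.1% of exon bases overlap an opposite-strand gene. The summed RPKM of the list was 91.9 to 97.7 in control and 131 to 135 in mutant hearts, of which Pam alone, a peptide-amidating enzyme with high levels outside the atria too, gave 53.1 to 62.2 and 96.0 to 99.2. Of 8 ventricular markers tested, 3 were higher and 3 lower. The compact ventricular factor Hey2 rose by 2.54 (edgeR adjusted p 5.68e-06) and Irx4 by 0.65 (0.000198), while Myl3 fell by 0.85 (1.28e-05) and Pln by 0.35, a call lost on the RPKM scales. For Pln, 64.7% of exon bases overlap opposite-strand genes. The summed RPKM of the ventricular list was 6804 to 7346 in control and 6353 to 6831 in mutant hearts. In CPM the sum was 16475 to 17631 in control and 13088 to 13593 in mutant hearts.

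**Figure D4:**
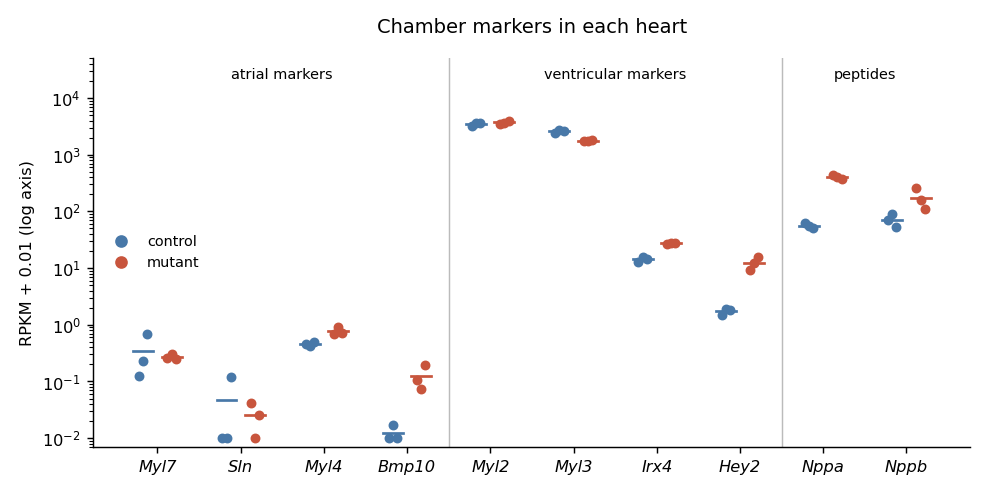
RPKM + 0.01 is plotted on a log axis for atrial markers, ventricular markers and the peptide genes in each heart (blue control, red mutant, bar the mean of 3 hearts). The atrial markers Myl7, Sln and Bmp10 lie below 1 in every heart, and Myl4 is also low. Myl2 lies at 3272 or above, and Nppa and Nppb lie between these atrial markers and Myl2.

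Npr1 and Npr3 are also genes of endothelium and endocardium, so the markers of those cells were read beside the receptors. Of 8 endocardial markers tested none was higher and 2 were lower, Tmem100 by 1.47 (edgeR adjusted p 0.000551) and Tek by 0.31, and the summed RPKM was 61.9 to 63.4 in control and 52.9 to 53.8 in mutant hearts. Of 8 vascular endothelial markers none was higher and 6 were lower, among them Flt1 by 0.44, Emcn by 0.34 and Kdr by 0.24. The summed RPKM of the 8 was 404 to 445 in control and 400 to 431 in mutant hearts. In CPM the sum was 2285 to 2498 in control and 1832 to 2019 in mutant hearts. On the RPKM scales the calls of Tek, Flt1 and Emcn were lost, and Kdr turned to 0.0477 on log2(RPKM + 0.1). The Kdr call was also lost without control replicate 2, mutant replicate 1 or mutant replicate 2 (adjusted p 0.0891, 0.0517 and 0.0724). The part of endothelial and endocardial cells in the receptor values was not tested. Of 8 general heart muscle markers none was higher and 4 were lower, led by Tnni3 at -1.27 and Ryr2 at -1.09. Across the 12 marker lists 87 genes were tested, of which 12 were higher and 31 lower, against 18.1% and 19.5% of all genes.

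Genes of cyclic GMP production and signalling moved in both directions. Nitric oxide synthases, other cyclases and cyclic nucleotide-gated channels are among them, so they are not only genes downstream of the natriuretic receptors. In the list of cyclic GMP production and signalling, 3 of 15 tested genes were higher, 5 lower and 7 not past the threshold. Their median log2 difference was -0.22 against -0.00 over all genes. Beside this list and the pathway lists below stand the shares over all genes, 18.1% higher and 19.5% lower. Prkg1, the main cyclic GMP-dependent kinase of muscle, stood at 10.8, 13.4 and 6.71 CPM in control and 22.7, 19.4 and 18.4 CPM in mutant hearts. It rose by 0.97 ± 0.20 (SE, edgeR adjusted p 0.00487), with no overlap between groups, as for 49.8% of all genes tested. Vasp, a classical substrate of this kinase, rose by 0.56 (edgeR adjusted p 0.000145). Prkg2, the second kinase gene, fell from 0.569 to 0.134 CPM (0.00131). The cyclic nucleotide-gated channel subunit Cngb3 fell from 8.90 ± 1.64 to 0.187 ± 0.0774 CPM (SD, n = 3 each), 47.1-fold, with an edgeR adjusted p of 4.67e-07. Gucy1a1 and Gucy1b1, the subunits of the nitric oxide-activated cyclase, were both at -0.19 and did not pass (edgeR adjusted p 0.0651 and 0.0584). Gucy1b1 passed as lower without mutant replicate 1 (adjusted p 0.0432), and both turned to 0.09 on log2(RPKM + 0.1).

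In the list of cyclic GMP breakdown and export, 3 of 11 tested genes were higher, 2 lower and 6 not past the threshold, with a median log2 difference of 0.12. Abcc5, a transporter that exports cyclic nucleotides, stood at 115, 114 and 120 CPM in control and 176, 193 and 185 CPM in mutant hearts, a rise of 0.66 (edgeR adjusted p 3.01e-05). Abcc4, a second exporter, fell by 0.44 (0.00289). The phosphodiesterase gene Pde1c rose by 0.66 (0.000685) and Pde3a by 0.26 (0.0134), and Pde6d, which encodes a carrier of prenylated proteins rather than a phosphodiesterase, fell by 0.28 (0.0101). The calls of Abcc4 and Pde6d were lost on the RPKM scales, and that of Pde3a without control replicate 3 (adjusted p 0.0521). The cyclic GMP-specific enzymes did not pass, Pde5a at -0.01 (edgeR adjusted p 0.933) and Pde9a at 0.13 (0.396), while on log2(RPKM + 0.1), where all genes had a median of 0.26, they stood at 0.26 (limma adjusted p 0.0568) and 0.40 (0.0111).

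Among 13 tested genes of peptide processing and breakdown, 1 was higher, 3 lower and 9 not past the threshold, with a median log2 difference of -0.16. Mme, which encodes neprilysin, the protease that degrades natriuretic peptides, stood at 11.6, 9.36 and 12.0 CPM in control and 4.91, 4.47 and 3.92 CPM in mutant hearts. Every mutant heart lay below every control heart, and the fall was 2.48-fold (edgeR adjusted p 4.68e-05). CPM ranges stood apart in either direction for 49.8% of all genes tested. Furin, a convertase that cuts the brain natriuretic peptide precursor, fell from 140 to 107 CPM (0.00195), a call lost on the RPKM scales. Ece2 fell by 0.73 (0.00145), although 57.5% of its exon bases also lie in another gene of the same strand, and Pam rose by 0.45 (0.00112). Pcsk6, the convertase that activates Corin, was at -0.10 and Ide, a further peptide-degrading protease, at 0.07, and neither passed (edgeR adjusted p 0.298 and 0.306). On log2(RPKM + 0.1) Pcsk6 turned to 0.19 and Ide passed at 0.36 (limma adjusted p 0.000647).

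Of 23 tested transcription factors known to act on Nppa or Nppb, 9 were higher, 1 lower and 13 not past the threshold, with a median log2 difference of 0.19. Gata6 rose from 121 to 183 CPM (edgeR adjusted p 0.000149) and Gata4 by 0.34 (0.00826), both activators of Nppa. Rest, a repressor of Nppa, rose by 0.41 (0.000558), as did the histone deacetylase Hdac9, by 0.50 (0.00185), while Hdac4 fell by 0.33, a call lost on the RPKM scales. Irx4, named above, is in this list too. Nkx2-5, at 0.15, and Tbx5, at 0.24, did not pass (edgeR adjusted p 0.378 and 0.101). Both passed as higher on log2(RPKM + 0.1), at 0.43 and 0.50 (limma adjusted p 0.0354 and 0.00831), and Tbx5 also without mutant replicate 2 (edgeR adjusted p 0.0231). Activators and repressors were thus both among the genes that rose.

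Of 21 tested load and hypertrophy markers other than the members, 8 were higher, 1 lower and 12 not past the threshold, with a median log2 difference of 0.27. Myh7, the slow myosin heavy chain, which thyroid hormone is known to repress, rose from 319 ± 60.6 to 18083 ± 922 CPM (SD, n = 3 each, edgeR adjusted p 3.24e-08). Ankrd1, a stretch-responsive protein of the sarcomere and nucleus, stood at 576, 659 and 648 CPM in control and 2849, 2131 and 2179 CPM in mutant hearts, a rise of 1.93 (2.69e-06). Fhl1 rose by 0.70 (0.000347) and Gdf15, a stress-induced growth factor, by 1.52 (0.00111). Actc1, the cardiac actin, fell by 0.30, a call lost on the RPKM scales and without mutant replicate 1 (adjusted p 0.0587). Acta1, the skeletal actin often read with Nppa and Nppb, was at -0.79 and did not pass (edgeR adjusted p 0.118), though it passed as lower without control replicate 3 (-1.04, adjusted p 0.038) and without mutant replicate 2 (-1.40, 0.00427).

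Of 15 other vasoactive receptors and ligands, 3 were higher, 5 lower and 7 not past the threshold, with a median log2 difference of -0.22. Rxfp1, the relaxin receptor, rose by 5.03 (edgeR adjusted p 1e-07) and Ramp1, a partner of the calcitonin-family receptors, by 1.58 (1.98e-05), while its relative Ramp3 fell by 1.04 (0.00021). Nr3c2, the mineralocorticoid receptor, fell by 0.58 (0.00227), a call lost on the RPKM scales. On log2(RPKM + 0.1) the medians of the 6 pathway lists ranged from 0.06 to 0.51, with 0.26 over all genes.

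**Figure D5:**
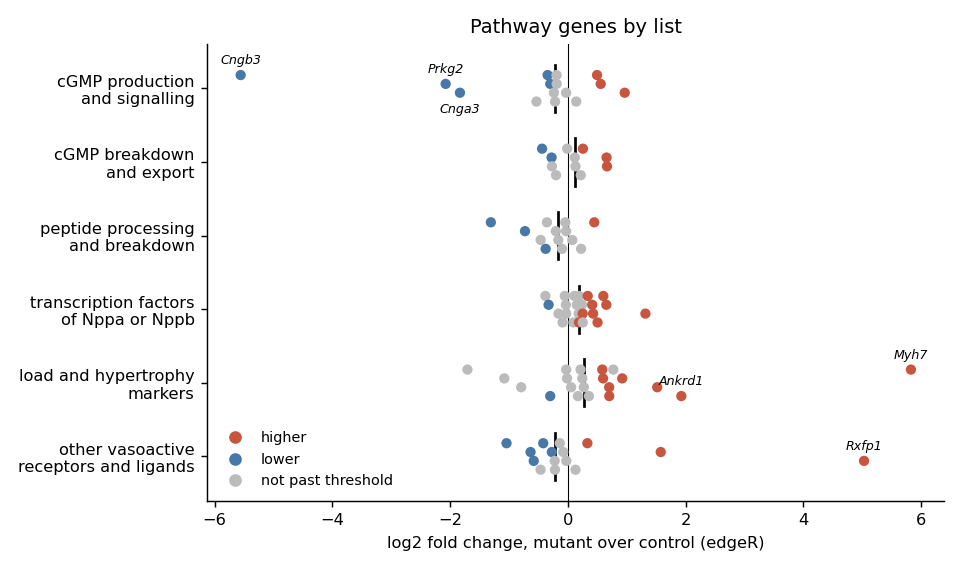
Each point is a tested gene of 1 of 6 pathway lists, placed by its log2 fold change (red higher, blue lower, grey not past the threshold), with a short bar at the list's median. The medians lie between -0.22 and 0.27, and single genes such as Myh7 at 5.83, Rxfp1 at 5.03 and Cngb3 at -5.56 stand far from them.

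The genes whose pattern over the 6 hearts was most like that of each member were found among 12016 named genes, by the root mean square difference of centred log2 CPM. Nearest to Nppa were Hmmr, a hyaluronan receptor of the mitotic spindle, at 0.139, Stbd1, which binds glycogen, at 0.155, and B3gnt5, a glycosphingolipid enzyme, at 0.161. Nearest to Nppb were Fzd3, a Wnt receptor, at 0.189, Aspm, a spindle pole protein, at 0.214, and the antisense transcript Sorbs2os at 0.215. Of these, Aspm passed as higher (edgeR adjusted p 0.00588), while Fzd3 and Sorbs2os did not pass (0.146 and 0.0815). Sorbs2os shares 42.5% of its exon bases with Sorbs2. Nearest to Npr1 was Nckipsd (0.0275), to Npr2 Psen2 (0.0149) and to Corin Tmem128 (0.0169). These steady members lay much closer to their nearest genes than Nppa and Nppb did to theirs. That contrast follows from the measure, which is not scaled to a gene's own spread, and says nothing more about the members. These distances cover 6 hearts and carry no test.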

How the data were processed

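Hearts of 3 control and 3 mutant pups were profiled, grouped by the sample titles. Deposited counts are whole reads per Ensembl gene. The submitters' processing notes list STAR 2.5.2b, featureCounts 1.5.1, cutadapt 1.9 and mm10. The authors' deposited RPKM values are counts over gene length and library total, with no composition scaling. The sources used here give neither strand setting nor annotation release. Names, exons and overlaps came from GENCODE M21, and promoters from RefSeq, where all 7 members matched.

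Counts were tested with edgeR 4.0.16 (R 4.3.3). Filtering with filterByExpr left 14877 of 20121 genes. Scaling was TMM, the test was quasi-likelihood with group as the only term, and adjustment was Benjamini-Hochberg over all genes. The SE is the log2 fold change over the square root of F, and intervals are 95%. DESeq2 1.42.0 and limma 3.58.1 on log2(RPKM + 0.1) and log2(RPKM + 1) were alternatives, with other scalings, no filter, no mitochondrial genes, a replicate block and each heart left out. The fit was tested on simulated data.

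The members and gene lists were chosen with earlier results of these data known. Named were all members, genes within 100 kb of Nppa and Nppb, up to 4 called genes per list by adjusted p, or the 2 most abundant where none was called, 3 nearest genes per member and Thra. Further list genes, such as Prkg1, Gata4, Pde3a, Pde5a, Nkx2-5 and Acta1, and all atrial markers with counts given, were chosen for their known role or after their values were seen. Members of lists without values above were summarised as counts, and 2 genes that the rule names are not reported here. The remaining marker lists gave, higher and lower of those tested, 3 and 0 of 8 for fibroblasts, 1 and 3 of 8 for smooth muscle, 0 and 6 of 8 for macrophages, 0 and 1 of 3 for epicardium, 1 and 1 of 6 for conduction cells, 0 and 1 of 4 for neurons and 0 and 0 of 6 for red blood cells.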

Additional observations from a re-analysis of the deposited data

How the results depend on the processing

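Nppa kept its rise and call under every alternative run, between 2.51 and 2.87 on the log2 scale. Nppb kept its direction under all, and lost its call with DESeq2 (1.03, adjusted p 0.0578), which left 1 member called higher, and without control replicate 1 or control replicate 3. Over the hearts left out in turn Nppb ranged from 0.61 to 1.28, the members called higher from 1 to 2 and those called lower from 0 to 1, Corin passing as lower without mutant replicate 1. Genes called higher ranged from 2039 to 2661 and lower from 2234 to 2856 in those fits.

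The direction of small differences changed with the scaling. Scaling by library totals alone called 7479 genes higher and 1207 lower, against 2688 and 2898 with TMM. log2(RPKM + 0.1) called 7091 and 1155, log2(RPKM + 1) 7094 and 1160, and log2(RPKM + 1) without a filter 6916 and 1170. Pathway genes called higher went from 27 to 54, 50, 50 and 46 in that order, and lower from 17 to 8, 4, 4 and 6. In the order totals, RPKM + 0.1, RPKM + 1 and RPKM + 1 without a filter, Npr1 became 0.20, 0.19, 0.18 and 0.18, Npr2 0.20, 0.20, 0.19 and 0.19, Corin 0.13 in each, Plod1 0.14, 0.14, 0.13 and 0.13, and Agtrap 0.12, 0.11, 0.11 and 0.11. Npr3 became 0.28, 0.27, 0.23 and 0.23 with adjusted p of 0.00404, 0.00781, 0.00825 and 0.0112, and was 0.0056 without mitochondrial genes. Pde6d became 0.0077, 0.0087, 0.0080 and 0.0080 and Kdr 0.0482, 0.0477, 0.0461 and 0.0461 in the same order. Gucy1a1 became 0.0946, 0.0910, 0.0825 and 0.0825, Gucy1b1 0.0915, 0.0900, 0.0828 and 0.0828, Pde5a 0.27, 0.26, 0.17 and 0.17, and Pcsk6 0.19, 0.19, 0.18 and 0.18. The median of all genes was 0.28 with totals, 0.26 with RPKM + 0.1, 0.17 with RPKM + 1 and 0.09 without its filter, so these reversals follow the construction of the scales.

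With each heart left out in turn, Npr1 ranged from -0.14 to 0.0033 and Npr3 from -0.026 to 0.027, the Pde5a log2 fold change from -0.0746 to 0.0813, and the log2 differences of the ratios from -0.0060 to 0.14 for Npr3 to Npr1, from -0.022 to 0.14 for Npr3 to Npr2 and from -0.048 to 0.054 for Npr1 to Npr2. Of 63 named genes outside the members, 33 kept their call and direction under all alternatives. Under at least 1 alternative, 17 lost a call with the direction kept, 8 gained a call and 8 reversed direction. Pde6d, counted among the reversed, lost its call as well.

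A replicate block gave Nppa 2.59 and Nppb 0.96 (edgeR adjusted p 0.00449), with 3090 genes higher and 3229 lower, and changed no member's call. Among the named genes outside the members it added Agtrap (adjusted p 0.0438), Gucy1b1 (0.0202) and Acta1 (0.0172) as lower and Tbx5 (0.0448) as higher. The numbers were not taken as pairs, since same-numbered hearts deviated together with correlations of 0.155, -0.050 and 0.096 over 14877 genes and not every heart correlated best with its own number. For ratios, the paired sign-flip test cannot go below an exact p of 0.25. Low counts limit Nppc, Sln and Bmp10.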

Other observations

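Mutant replicate 1 was the highest of the mutant hearts for Nppa and Nppb, and also for some but not all of the load markers. This pattern was chosen after the values were seen. Ankrd1 stood there at 2849 CPM against 2131 and 2179 in the other mutant hearts. Ccn2, a matrix-associated growth factor gene, rose in the mutant hearts (edgeR adjusted p 0.00398) and stood at 153 CPM in mutant replicate 1 against 98.0 and 84.3 in the other mutant hearts, with 61.8, 52.8 and 62.2 in the controls. For Ccn2, 23.2% of exon bases overlap an opposite-strand gene. Gdf15 stood at 2.03 CPM in mutant replicate 1 against 1.12 and 1.60 in the other mutant hearts. Xirp2, which did not pass the threshold (edgeR adjusted p 0.318), stood at 330 CPM in mutant replicate 1 against 187 and 189. Other load markers went the other way. Myh7 was lowest among the mutant hearts in mutant replicate 1, at 17029 CPM against 18477 and 18741. Acta1, Xirp1 and Timp1 were lowest there too, by smaller margins in part. Acta1 was at 7.28 CPM there against 18.8 and 7.36, and Xirp1 at 301 against 314 and 310. With 3 mutant hearts neither order was tested.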
